A study of Mus musculus with 2 samples.

Results

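The enzymes, transporters and regulatory kinases of glycolysis and the pentose phosphate pathway were examined in ILC2 progenitors, the bone marrow precursors of group 2 innate lymphoid cells. The set was a fixed list of 39 genes, found by their symbols in the deposited tables, and all 39 had a row among the 27179 genes listed. Glycolysis splits glucose into pyruvate in the cytosol, with a net yield of ATP and NADH. The pentose phosphate pathway branches off at glucose phosphate and yields NADPH and ribose phosphate for biosynthesis. Pyruvate is then reduced to lactate and exported, or passed to the pyruvate dehydrogenase complex of the mitochondria, and lymphocytes are known to shift between these routes when they are activated.

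The study held 2 RNA-seq libraries of 1 group, called pool 1 and pool 2 here. Both came from wild-type C57BL/6 mice that were 8 weeks old, with no treatment named, and each library was made from cells pooled from 8 mice after sorting from bone marrow. Neither the surface markers used for sorting nor the animals' sex is stated in the labels. The column heading inside each of the 2 files carried the other library's code, so the names of the pools follow the record of each file, and every difference between the pools would change sign if the headings were right.

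All values are deposited RPKM, reads scaled to the length of the gene and to the depth of the library, which allows levels of different genes to be set side by side. The steps of the RPKM values gave totals of 20216146 reads in pool 1 and 19834586 reads in pool 2. At these depths 3 reads in 1 kilobase of gene equal 0.148 RPKM in pool 1 and 0.151 RPKM in pool 2. All 10 markers of ILC2 fixed for the check were at 1 RPKM or more in both pools, and 5 were higher in each pool. Gata3 was at 292 RPKM in pool 1 and 250.3 RPKM in pool 2, Id2 was at 709.7 RPKM in pool 1 and 287 RPKM in pool 2, and Il1rl1 was at 173 RPKM in pool 1 and 262 RPKM in pool 2. Id2 was the 1 marker of the 10 that was 2-fold apart. Markers of other cells were also present, and their sums differed between the pools in both directions. The summed level of 9 erythroid markers was 943 RPKM in pool 1 and 2657 RPKM in pool 2. The summed level of 11 neutrophil and monocyte markers was 1012 RPKM in pool 1 and 2419 RPKM in pool 2, and that of 9 eosinophil markers was 60.3 RPKM in pool 1 and 659 RPKM in pool 2. The summed level of 8 T cell markers was 500.3 RPKM in pool 1 and 683 RPKM in pool 2, with Cd8a at 0 in both. The sum of 8 B and plasma cell markers was 654 RPKM in pool 1 and 452 RPKM in pool 2. Only 2 of these 8, Ighm and Igkc, were higher in pool 1, and 6 were higher in pool 2. For 6 stromal markers the sum was 68.2 RPKM in pool 1 and 2.82 RPKM in pool 2. Of these 6, 0 reached 1 RPKM in both pools, 4 were higher in pool 1 and 2 in pool 2. Col1a1 was at 40.5 RPKM in pool 1 and 0.889 RPKM in pool 2. The summed level of 11 immediate early genes was 9931 RPKM in pool 1 and 771 RPKM in pool 2. With 2 pools in 1 group, an exact sign-flip test cannot give a p below 0.5, so no test was made and each difference is given with its value in each pool.

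Transcripts of nearly the whole pathway were detected. Of the 39 genes, 37 reached 1 RPKM in both pools, a share of 94.9%, against 40.5% of all 27179 genes. The exceptions were the neuronal enolase Eno2 and the pyruvate dehydrogenase kinase Pdk4. Mean levels were 100 RPKM or more for 7 genes, between 10 and 100 for 19, between 1 and 10 for 11 and under 1 for 2. The median gene of the list had a mean of 20.2 RPKM, or 4.34 on the log2(RPKM + 0.1) scale, against 14.6 RPKM for the median of the 11013 genes detected in both pools. Together the list made up 0.514% of all summed RPKM in pool 1 and 0.526% in pool 2, a mean of 0.520% ± 0.00852 (SD, n = 2). The top 5 genes, Aldoa, Ldha, Pkm, Taldo1 and Gpi1, held 58.1% of the list's sum in pool 1 and 57.9% in pool 2.

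**Figure D1:**
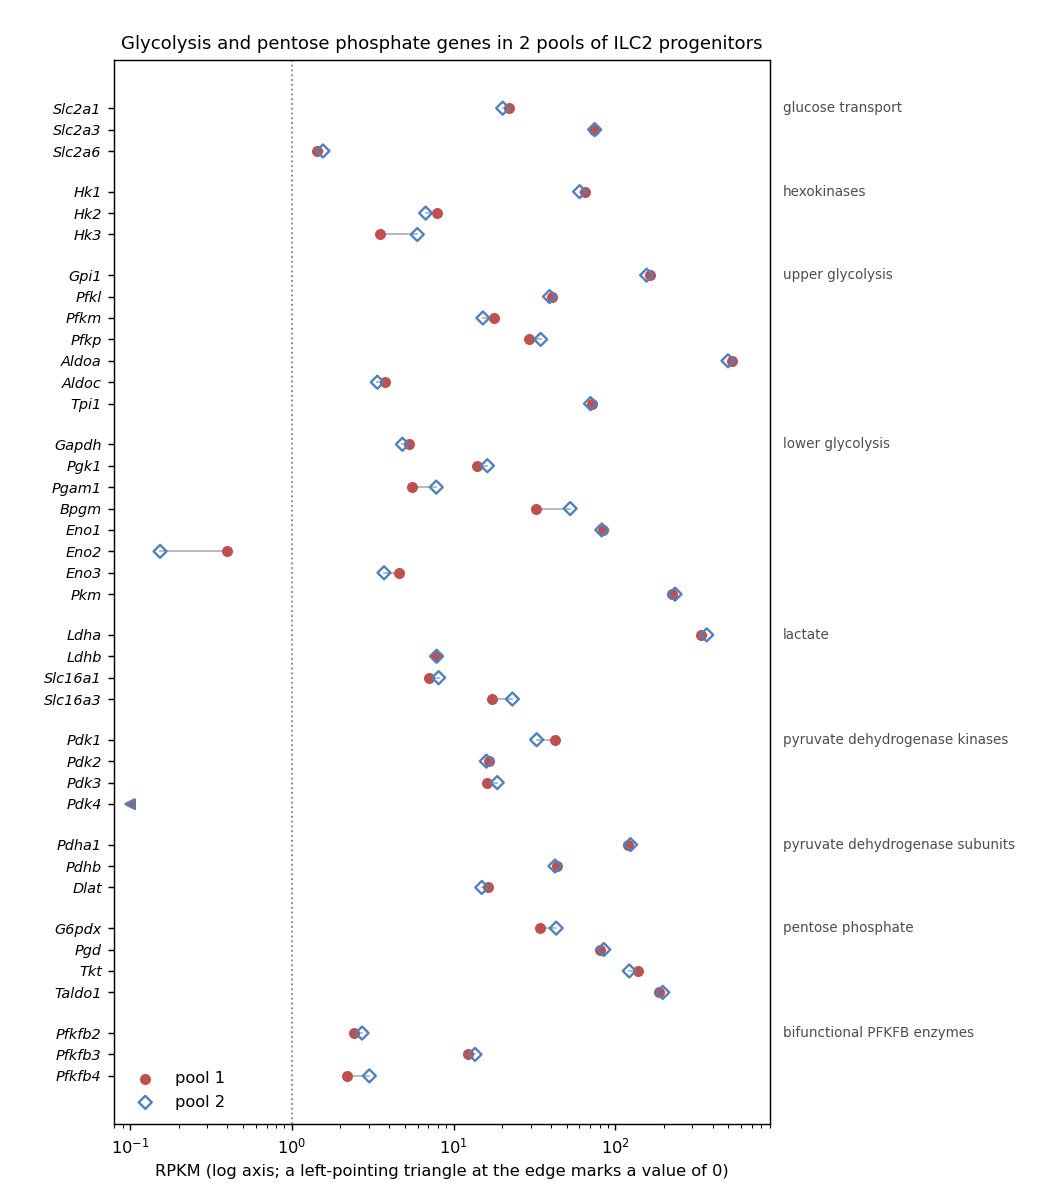
RPKM of each of the 39 genes (log axis) in pool 1 (filled circles) and pool 2 (open diamonds), grouped by step. The dotted line marks 1 RPKM. Aldoa, at 525 RPKM in pool 1 and 498 RPKM in pool 2, lies farthest right, and Pdk4 is listed at 0 in both pools.

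Near copies of several members' transcripts lie elsewhere in the mouse genome, and their sequences are shown because reads from such stretches can match more than 1 gene. For each member, every run of 50 bases in its principal GENCODE M21 transcript (build GRCm38, the same as mm10) was looked up in the transcripts of all other annotated genes. Runs were matched in either orientation, and an overlap between genes was not told apart from a copy. Gapdh, the glyceraldehyde phosphate dehydrogenase that is often used as a reference gene in expression studies, stood apart. Of its 50-base runs, 82.5% were also present in pseudogenes, and 215 annotated pseudogenes held at least 1 of them. Pgk1, the phosphoglycerate kinase, shared 68% with 5 pseudogenes, and Pgam1, a phosphoglycerate mutase, shared 41.5% with 4. A stretch of the coding sequence, bases 301 to 390 counted from the start codon of each member, is shown to let the identity be seen. The copy is the gene that shared most runs, shown at its ungapped place with the fewest differences. Bases in capitals differ between member and copy, and the sequences run 5′ to 3′ on the coding strand.
Gapdh, chr6:125161715-125166467, minus strand: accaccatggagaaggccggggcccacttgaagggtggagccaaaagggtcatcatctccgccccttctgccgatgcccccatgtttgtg
Gm7336, a processed pseudogene of Gapdh, chr7:51746647-51747878, plus strand: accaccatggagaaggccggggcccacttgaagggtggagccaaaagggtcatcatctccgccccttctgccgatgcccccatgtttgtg
Pgk1, chrX:106187100-106203699, plus strand: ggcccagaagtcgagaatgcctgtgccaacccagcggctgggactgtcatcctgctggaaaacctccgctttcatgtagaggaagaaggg
Pgk1-rs7, a processed pseudogene of Pgk1, chr12:10898986-10900240, minus strand: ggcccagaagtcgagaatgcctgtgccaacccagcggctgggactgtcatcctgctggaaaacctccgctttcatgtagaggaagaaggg
Pgam1, chr19:41911923-41918660, plus strand: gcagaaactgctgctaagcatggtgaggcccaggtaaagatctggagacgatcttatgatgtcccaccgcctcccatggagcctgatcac
Pgam1-ps2, a processed pseudogene of Pgam1, chr7:27469771-27470535, minus strand: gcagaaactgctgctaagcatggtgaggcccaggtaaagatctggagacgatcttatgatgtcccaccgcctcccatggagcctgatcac
Aldoa, chr7:126795234-126800751, minus strand: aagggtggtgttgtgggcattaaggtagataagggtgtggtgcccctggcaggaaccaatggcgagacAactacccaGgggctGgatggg
Aldoart1, a retrogene of Aldoa, chr4:72850583-72852634, minus strand: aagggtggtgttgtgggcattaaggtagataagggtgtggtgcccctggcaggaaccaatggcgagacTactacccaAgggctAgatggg
Over these 90 bases Gapdh, Pgk1 and Pgam1 had 0 differences from the copy shown, and Aldoa had 3 differences from Aldoart1. The coordinates are those of the whole gene, and the stretch shown is spliced.

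The sugar transporters came first in the pathway. Slc2a3 encodes GLUT3, a glucose transporter of high affinity, and was at 73.9 RPKM in pool 1 and 74.6 RPKM in pool 2. Slc2a1, which encodes the widely expressed GLUT1, was at 21.9 RPKM in pool 1 and 20.1 RPKM in pool 2. The transporter gene Slc2a6 was at 1.44 RPKM in pool 1 and 1.56 RPKM in pool 2, on 62 reads in pool 1 and 66 reads in pool 2. Slc2a3 was therefore the most abundant of the 3 in both pools, with 76.0% of their summed RPKM in pool 1 and 77.5% in pool 2. The Slc2a1 minus Slc2a3 difference was -1.82 ± 0.10 on the log2(RPKM + 0.1) scale (SD, n = 2).

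Hexokinases trap glucose in the cell as glucose phosphate. Hk1, the form of most tissues, was at 64.5 RPKM in pool 1 and 60.2 RPKM in pool 2. Hk2, the form that is induced in growing cells, was at 7.88 RPKM in pool 1 and 6.72 RPKM in pool 2. Hk1 held 85.0% of the summed RPKM of the 3 hexokinases in pool 1 and 82.6% in pool 2. Hk3, the hexokinase of myeloid cells, was at 3.51 RPKM in pool 1 and 5.97 RPKM in pool 2. Hk3 had 232 reads in pool 1 and 387 reads in pool 2, which gave a pool 1 over pool 2 ratio of 0.588 per total reads with a 95% exact (Clopper-Pearson) interval of 0.498 to 0.694. Such intervals cover counting error only. Of the 11 neutrophil and monocyte markers, 9 were detected in both pools and all 9 of these were higher in pool 2, 5 of them at least 2-fold. Their part in the Hk3 difference was not tested, and in bulk RNA a larger number of cells of a type cannot be told apart from more RNA per cell. The order of Hk2 and Hk3 was the same in both pools, but their log2 difference was 1.14 in pool 1 and 0.17 in pool 2, a mean of 0.66 ± 0.69 (SD, n = 2), which is less than its own spread.

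The upper steps turn glucose phosphate into triose phosphates. Gpi1, the isomerase of the hexose phosphates, was at 164 RPKM in pool 1 and 156 RPKM in pool 2. Phosphofructokinase is the main control point of the pathway, and each of its 3 genes was above 10 RPKM in both pools. Pfkl, the liver-type subunit, was at 40.8 RPKM in pool 1 and 39.2 RPKM in pool 2. Pfkp, the platelet-type subunit, was at 29.2 RPKM in pool 1 and 34.6 RPKM in pool 2. Pfkm, the muscle-type subunit, was at 17.9 RPKM in pool 1 and 15.2 RPKM in pool 2. The order Pfkl, Pfkp, Pfkm held in both pools, with 46.5%, 33.2% and 20.4% of the family sum in pool 1 and 44.1%, 38.8% and 17.1% in pool 2. The Pfkl minus Pfkp log2 difference was 0.33 ± 0.21 and the Pfkp minus Pfkm log2 difference was 0.94 ± 0.34 (SD, n = 2 each). Pfkp shared 17.1% of its 50-base runs with 1 other annotated gene, the protein-coding Pitrm1, and whether by overlap or by copy was not examined.

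Aldoa, the aldolase of muscle and most other tissues, was the most abundant gene of the list. It was at 525 RPKM in pool 1 and 498 RPKM in pool 2, a mean of 511 ± 18.9 RPKM (SD, n = 2), which ranked 95 among all genes. Aldoc, the aldolase of brain, was at 3.75 RPKM in pool 1 and 3.38 RPKM in pool 2. Aldoa held 99.3% of the summed RPKM of Aldoa and Aldoc in each pool, a sum that leaves out the retrogenes. The retrogene Aldoart1, whose stretch is shown above, had its own row at 21.5 RPKM in pool 1 and 20.7 RPKM in pool 2, and Aldoart2 was at 18.9 RPKM in pool 1 and 16.7 RPKM in pool 2. Tpi1, the isomerase of the triose phosphates, was at 71.7 RPKM in pool 1 and 70.3 RPKM in pool 2.

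The lower steps held both very abundant genes and genes with low recorded levels. Gapdh was at 5.30 RPKM in pool 1 and 4.83 RPKM in pool 2, a mean of 5.06 ± 0.333 RPKM (SD, n = 2). This ranked 8563 by mean RPKM, and the values rested on 132 reads in pool 1 and 118 reads in pool 2. Pgk1 was at 14.0 RPKM in pool 1 and 16.2 RPKM in pool 2, and Pgam1 was at 5.54 RPKM in pool 1 and 7.82 RPKM in pool 2. These 3 successive steps thus had lower recorded levels than the steps on either side of them. Tpi1 just before them stood at a mean of 71.0 RPKM. Eno1, the widely expressed enolase just after them, was at 83.8 RPKM in pool 1 and 82.6 RPKM in pool 2. Pkm, the pyruvate kinase whose M1 and M2 splice forms were not resolved in these gene-level values, was at 225 RPKM in pool 1 and 234 RPKM in pool 2.

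Sharing with pseudogenes did not run in step with these levels across all members. Eno1, at a mean of 83.2 RPKM, shared 52.8% of its 50-base runs with 8 pseudogenes, and 72.2% once 1 further gene, a protein-coding copy, was counted. Pkm, at 229.4 RPKM, shared 30.5% with 7 pseudogenes, and 34.4% with 8 genes in all. Ldha, at 354 RPKM, shared 17.1% with 14. Pgam1, at 6.68 RPKM, shared 41.5%. Ldhb shared 27% with 1 pseudogene, Gpi1 18.9% with 2, Taldo1 12.4% with 1 and Tpi1 7.51% with 2. The shares of Gapdh and Pgk1 moved little with the length of the run, at 83.7% and 68.2% for 36 bases and 78% and 67% for 100 bases. The share of Ldha in pseudogenes was 30.2% for 36 bases and 1.32% for 100 bases. Of the 215 pseudogenes of Gapdh, 8 had rows of their own, and the highest, 3000002C10Rik, was at 0.812 RPKM in pool 1 and 0.670 RPKM in pool 2. None of the 4 pseudogenes of Pgam1 or the 5 of Pgk1 had a row. The read length and the treatment of reads with several matches are not stated in the labels or files, and the part of shared sequence in any of these levels was not tested. The recorded levels of Gapdh, Pgk1, Pgam1 and Eno1 are given as uncertain.

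**Figure D2:**
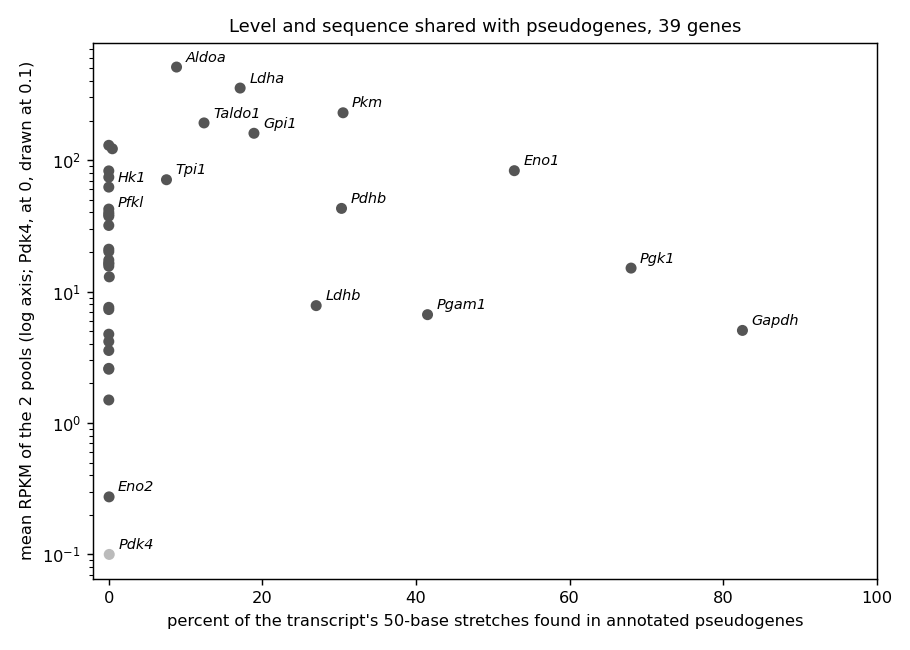
Mean RPKM of the 2 pools (log axis) against the percent of each principal transcript's 50-base runs found in annotated pseudogenes, for the 39 genes. Gapdh lies at 82.5% and 5.06 RPKM and Pgk1 at 68% and 15.1 RPKM, Eno1 lies at 52.8% (72.2% with its protein-coding copy, not plotted) and 83.2 RPKM and Pkm at 30.5% and 229.4 RPKM; Pdk4, at 0 RPKM, is drawn at 0.1.

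Bpgm makes the bisphosphoglycerate that lowers the oxygen affinity of haemoglobin in red cells, and was at 32.3 RPKM in pool 1 and 52.6 RPKM in pool 2. Its transcript shared 0% of its 50-base runs with other genes. It had 1350 reads in pool 1 and 2157 reads in pool 2, which gave a ratio of 0.614 with a 95% exact counting interval of 0.573 to 0.658. All 9 erythroid markers were higher in pool 2. Of these, 8 were detected in both pools, 6 of the 8 at least 2-fold apart. The globin gene Hba-a2 was at 284 RPKM in pool 1 and 830.4 RPKM in pool 2, and Alas2, which starts haem synthesis in red cells, was at 21.5 RPKM in pool 1 and 77.7 RPKM in pool 2. The part of these markers in the Bpgm difference was not tested.

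The remaining enolases were low. Eno3, the muscle enolase, was at 4.62 RPKM in pool 1 and 3.72 RPKM in pool 2. Eno2 was at 0.395 RPKM in pool 1 and 0.153 RPKM in pool 2, on 21 reads in pool 1 and 8 reads in pool 2, with a read ratio of 2.58 and a 95% exact counting interval of 1.10 to 6.72. Eno1 held 94.3% of the enolase sum in pool 1 and 95.5% in pool 2. Eno2, Tpi1 and Gapdh all lie on chromosome 6 in the RefSeq annotation of GRCm38, with Eno2 at chr6:124760053-124769673, Tpi1 at chr6:124810586-124814158 and Gapdh at chr6:125161852-125166467.

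Lactate dehydrogenase was almost all of the A type. Ldha, whose subunit is known for turning pyruvate into lactate, was at 340.1 RPKM in pool 1 and 367 RPKM in pool 2, the second highest of the list. Ldhb, the subunit of heart, was at 7.78 RPKM in pool 1 and 7.86 RPKM in pool 2. Ldha minus Ldhb was 5.48 ± 0.07 on the log2(RPKM + 0.1) scale (SD, n = 2), a 44.7-fold difference in level. Ldha held 97.8% of their sum in pool 1 and 97.9% in pool 2. Of the 14 pseudogenes that shared a run with Ldha, 1 had a row, and this copy, Gm13315, was at 8.12 RPKM in pool 1 and 9.09 RPKM in pool 2. The lactate exporter Slc16a3, known as MCT4, was at 17.2 RPKM in pool 1 and 23.1 RPKM in pool 2. Slc16a1, the widely expressed carrier MCT1, was at 7.09 RPKM in pool 1 and 8.09 RPKM in pool 2. The Slc16a1 minus Slc16a3 log2 difference was -1.39 ± 0.17 (SD, n = 2), so Slc16a3 was the higher of the pair in both pools.

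**Figure D3:**
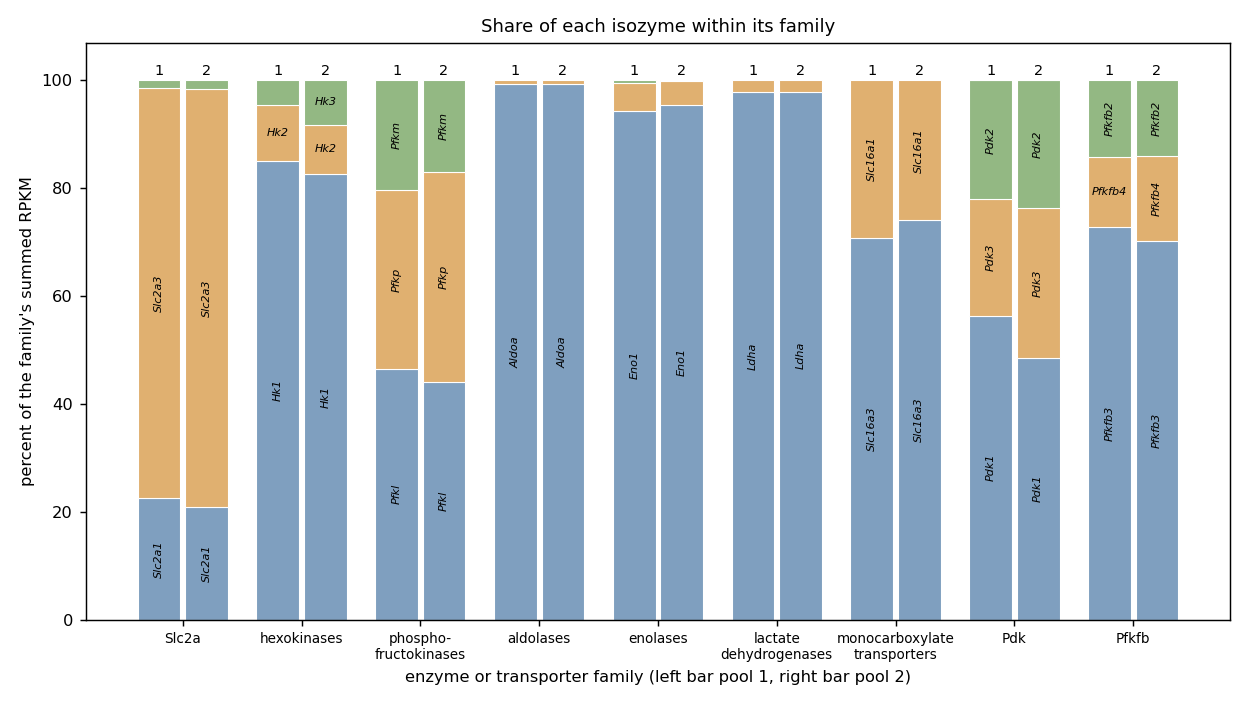
Percent of each family's summed RPKM held by each isozyme, with pool 1 as the left bar and pool 2 as the right bar of each pair. The aldolases are Aldoa and Aldoc, without the retrogenes. Hk1, Aldoa, Eno1 and Ldha hold over 80% of their families in both pools, whereas the 3 phosphofructokinase and 3 detected pyruvate dehydrogenase kinase genes are spread more evenly; slices without a name are Slc2a6, Hk3 (pool 1), Aldoc, Eno3 with Eno2 above it, and Ldhb.

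The mitochondrial entry of pyruvate was also represented. Pdha1, the catalytic alpha subunit of the pyruvate dehydrogenase complex, was at 120.1 RPKM in pool 1 and 124 RPKM in pool 2. Its beta subunit Pdhb was at 43.5 RPKM in pool 1 and 42.4 RPKM in pool 2, and the acetyltransferase Dlat was at 16.2 RPKM in pool 1 and 15.0 RPKM in pool 2. Pdha1 shared 16.9% of its 50-base runs with 2 other genes, and Pdhb shared 30.3% with 1 pseudogene. The kinases that switch this complex off differed in level. Pdk1, a kinase induced under low oxygen, was at 42.3 RPKM in pool 1 and 32.7 RPKM in pool 2, a read ratio of 1.29 with a 95% exact counting interval of 1.24 to 1.35. Pdk2 was at 16.5 RPKM in pool 1 and 16.0 RPKM in pool 2, and Pdk3 was at 16.1 RPKM in pool 1 and 18.6 RPKM in pool 2. Pdk1 was the highest of the kinases in both pools, by 1.19 ± 0.23 over Pdk2 and 1.10 ± 0.41 over Pdk3 on the log2 scale (SD, n = 2 each). Pdk2 and Pdk3 changed order between the pools, so their levels did not differ beyond their spread. Pdk4, the kinase induced by fasting, had 0 reads in both pools. At a count of 0 the upper limit on the expected count is 3 reads in each pool.

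The pentose phosphate genes were all well above 10 RPKM. G6pdx, the glucose phosphate dehydrogenase that commits sugar to the pathway and makes NADPH, was at 34.0 RPKM in pool 1 and 43.1 RPKM in pool 2. The reads behind it gave a ratio of 0.789 with a 95% exact counting interval of 0.742 to 0.840. Such intervals left out 1 for 23 of the 37 detected genes, so this one does not set G6pdx apart. Pgd, the second NADPH-making enzyme, was at 80.8 RPKM in pool 1 and 84.9 RPKM in pool 2. G6pdx shared 10.7% of its 50-base runs with 2 other genes. The G6pdx minus Pgd log2 difference was -1.11 ± 0.19 (SD, n = 2). The enzymes of the non-oxidative arm, which return pentose to glycolysis, stood higher. The transketolase Tkt was at 137 RPKM in pool 1 and 122 RPKM in pool 2, and the transaldolase Taldo1 was at 187 RPKM in pool 1 and 197 RPKM in pool 2. The Tkt minus Taldo1 log2 difference was -0.57 ± 0.17 (SD, n = 2). The sum of the 4 genes was 440 RPKM in pool 1 and 447 RPKM in pool 2.

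The bifunctional PFKFB enzymes set the level of the fructose bisphosphate that activates phosphofructokinase. Pfkfb3, the form with the strongest kinase activity, was at 12.3 RPKM in pool 1 and 13.6 RPKM in pool 2, or 72.8% of the family sum in pool 1 and 70.3% in pool 2. Pfkfb2 was at 2.41 RPKM in pool 1 and 2.72 RPKM in pool 2, and Pfkfb4 was at 2.19 RPKM in pool 1 and 3.02 RPKM in pool 2. The order of Pfkfb2 and Pfkfb4 in RPKM changed between the pools, so on this scale these neighbours did not differ beyond their spread. The gene length behind the Pfkfb2 values was 9621 bases, against 4425 bases in its principal transcript. Pfkfb2 also shared 25.1% of its 50-base runs with 1 other annotated gene. The part of this length or sharing in the order and in the family shares was not tested.

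Between the pools the list as a whole differed little. None of the 37 detected genes was 2-fold apart, against 2.56% of the 11013 detected genes. At 1.5-fold, 2 genes were apart, Hk3 and Bpgm, where 8.45% of detected genes were apart in either direction. Both were higher in pool 2, the direction of 5.86% of detected genes. Of the 37 genes, 17 were higher in pool 1, a share of 45.9%, against 42.7% of detected genes. The median log2 ratio of pool 1 over pool 2 was -0.01 for the list and -0.04 for all detected genes, and the median size of the ratio was 0.13 for the list and 0.17 for all detected genes. Within 1.2-fold lay 29 of the 37 genes, a share of 78.4%, against 67.1% of detected genes. These shares lay near the background, so nothing particular to the list is drawn from them. The sums by step were close as well. The upper steps summed to 852 RPKM in pool 1 and 817 RPKM in pool 2, the lower steps to 371 RPKM in pool 1 and 402 RPKM in pool 2, and the lactate genes to 372 RPKM in pool 1 and 407 RPKM in pool 2.

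**Figure D4:**
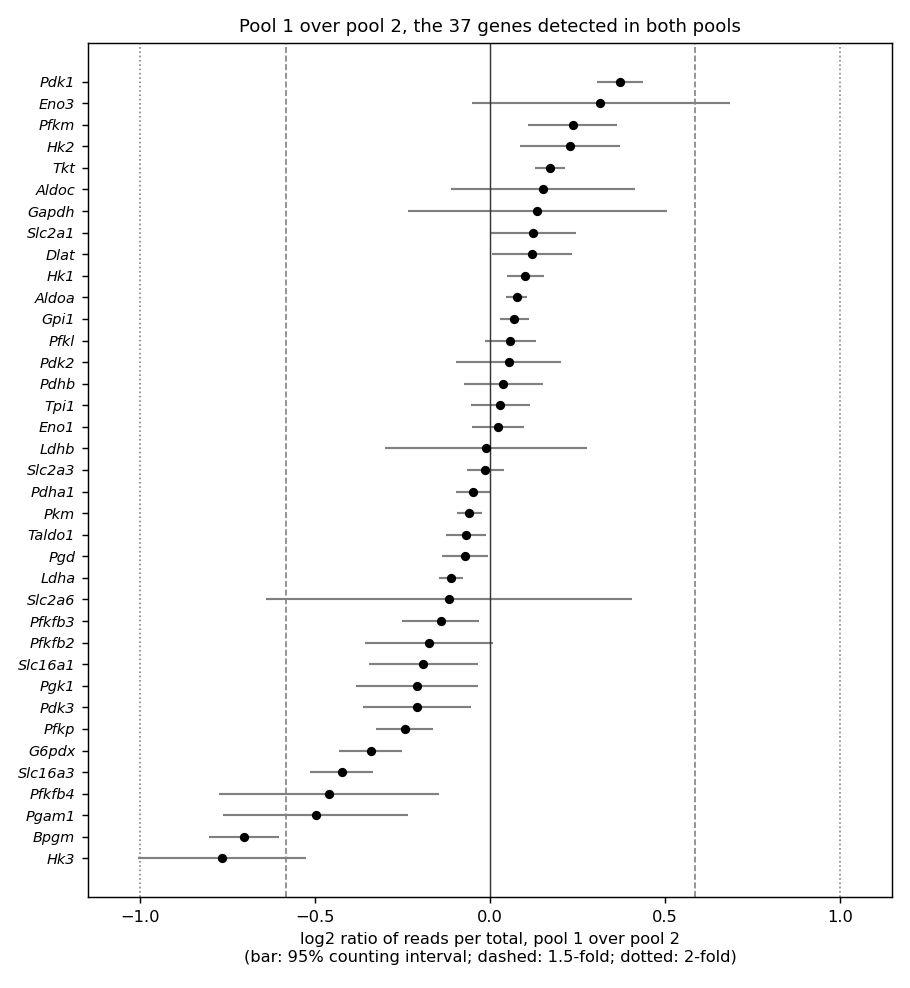
Log2 ratio of reads per total, pool 1 over pool 2, for the 37 detected genes, with 95% exact counting intervals (bars), 1.5-fold (dashed) and 2-fold (dotted). Pdk1, at a read ratio of 1.29, is the highest, and Bpgm and Hk3, at 0.614 and 0.588, are the lowest.

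Around the list, 76 further genes in 8 groups of neighbouring pathways were listed, and 48 of them were at 1 RPKM or more in both pools. Of all 27179 genes, 40.5% reached this level. The remaining pentose phosphate steps were detected for 7 of 7 genes. Rpia, the ribose phosphate isomerase, was at 62.2 RPKM in pool 1 and 50.5 RPKM in pool 2, and Prps2, which activates ribose phosphate for nucleotide synthesis, was at 59.5 RPKM in each pool. The remaining pyruvate entry genes were detected for 9 of 9. Bsg, the basigin that carries monocarboxylate transporters to the membrane, was at 139 RPKM in pool 1 and 151 RPKM in pool 2. The mitochondrial pyruvate carrier genes Mpc1 and Mpc2 were at 14.5 and 40.1 RPKM in pool 1 and at 14.0 and 41.4 RPKM in pool 2. Of the 13 isozymes restricted to particular tissues, 2 were detected and 5 were listed at 0 in both pools. The exception in level was Tktl1, a relative of transketolase, at 46.6 RPKM in pool 1 and 43.9 RPKM in pool 2. Of 10 other sugar transporters, 2 were detected, with Slc2a9 at 11.1 RPKM in pool 1 and 9.25 RPKM in pool 2.

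Of 10 regulators, 8 were detected. Myc and Hif1a encode factors known to raise transcription of glycolytic genes. Myc was at 63.9 RPKM in pool 1 and 46.8 RPKM in pool 2, and Hif1a was at 34.7 RPKM in pool 1 and 42.1 RPKM in pool 2. Txnip, an arrestin that curbs glucose uptake and responds to glucose, was the highest of them and the most different between pools, at 457 RPKM in pool 1 and 878 RPKM in pool 2. Its log2 ratio was -0.94. Of the 48 detected genes 0 were 2-fold apart, against 2.56% of all detected genes. At 1.5-fold 1 was apart, Txnip, against 8.45% of all detected genes. The median log2 ratio of the 48 was -0.02.

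**Figure D5:**
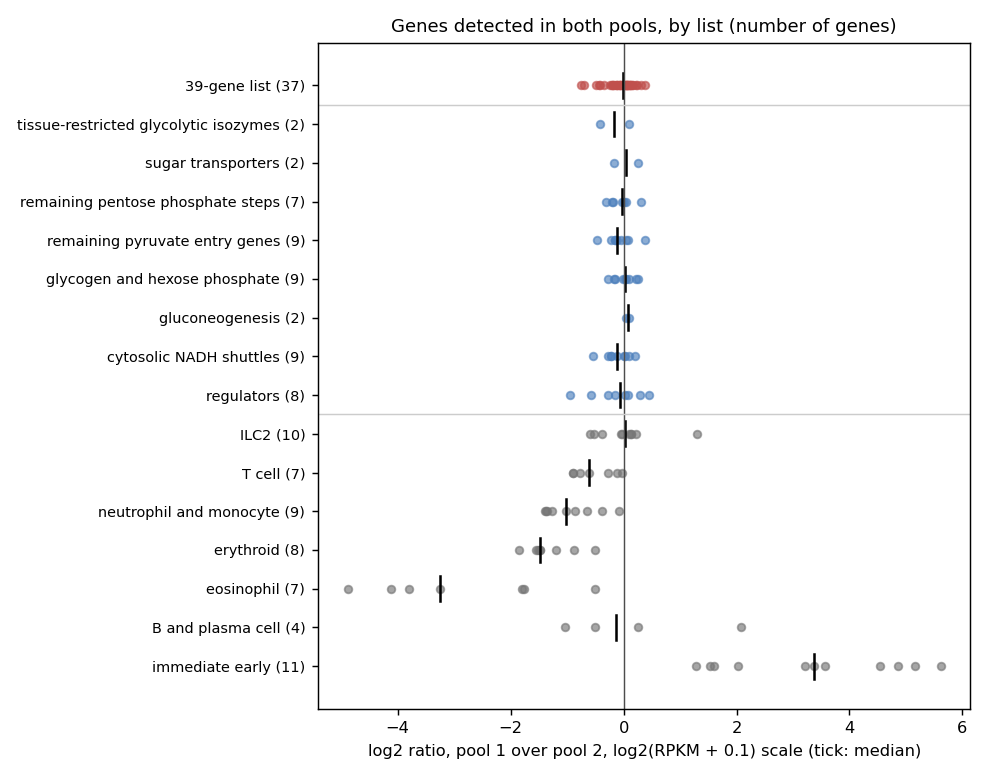
Log2 ratio of pool 1 over pool 2 on the log2(RPKM + 0.1) scale for the detected genes of the 39-gene list (red), of the neighbouring pathways (blue) and of the marker lists (grey), with a black tick at each median. The 39-gene list has its median at -0.01, whereas the erythroid markers have theirs at -1.48 and the immediate early genes at 3.38.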

How the data were processed

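Cells were sorted from bone marrow, and libraries were made from 100 ng of total RNA with the Illumina TruSeq RNA kit, per the labels' protocols. The authors deposited RPKM per Entrez gene. Per the submitters' processing notes, the build was mm10 and the tools included featureCounts, CASAVA 1.8.2 and edgeR in versions 3.8.2 and 3.22.0. The aligner and the strand setting were not given in the sources used here. Both pools stand for 1 group, and nothing says more of their independence than that each holds 8 mice. A gene counted as detected where each pool had at least 1 RPKM. Log2 values used a pseudocount of 0.1 RPKM, which understates ratios of low genes. Total reads were those at which RPKM of short genes of known length became whole reads, which worked for 142 of 143 genes in pool 1 and 107 of 108 in pool 2. The reads of a member were taken at a gene length that made both pools whole. Where several lengths did so, the one nearest to the guide length, that of the principal transcript, was kept. This choice sets the reads and the width of the intervals. The procedure was tested on simulated data, with guide lengths close to the true gene length. Some members lay farther off, such as Pfkfb2, with 4425 bases in its principal transcript against 9621 used, and the test does not cover these. Read ratios have exact (Clopper-Pearson) 95% intervals. Shared runs came from GENCODE M21, and gene positions of Eno2, Tpi1 and Gapdh on chromosome 6 from RefSeq. Named genes were all members, and, of the neighbouring pathways, genes with a mean of 10 RPKM or more or 2-fold apart. The members and lists were chosen with earlier results of these data known. Python 3.11.15, numpy 2.4.6, pandas 2.3.3, scipy 1.17.1 and matplotlib 3.10.9 were used.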

Additional observations from a re-analysis of the deposited data

How the results depend on the processing

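No paired analysis was possible because there is 1 group. The count of 37 detected genes was 37 at 0.5 RPKM and 30 at 5 RPKM, and stayed at 37 with either pool alone. The median level of 4.34 (log2) ranged from 4.17 to 4.34 with 1 pool left out, and was 4.40 with a pseudocount of 1 and 4.33 with 0.01. The list's share of summed RPKM, 0.520%, ranged from 0.514% to 0.526% with 1 pool left out and was 0.610% without mitochondrially encoded and ribosomal protein genes, by construction of the smaller total. In 10 of 14 gene pairs the first gene was the higher one, under every alternative. Each pair held members of 1 family, except Tkt with Taldo1 and G6pdx with Pgd. The count of 0 genes 2-fold apart was 2 at 1.5-fold and 0 under the other alternatives. The median log2 ratio of -0.0137 was -0.0136 with a pseudocount of 1, -0.0138 with 0.01, -0.0134 with no filter and with a filter of 5 RPKM, and -0.0298 with each pool scaled to the same sum. It turned to 0.0301 when the median ratio of all detected genes, -0.04, was set to 0. Directions of ratios this small depend on the scaling. With 2 pools and no second group, no difference here has a test, and low reads limit Eno2 (21 in pool 1, 8 in pool 2) and Slc2a6 (62 in pool 1, 66 in pool 2).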

Other observations

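Genes that store sugar as glycogen were present beside those that break it down. Of 10 genes of glycogen and hexose phosphate turnover, 9 were at 1 RPKM or more in both pools. The brain-type glycogen phosphorylase Pygb was at 43.2 RPKM in pool 1 and 40.3 RPKM in pool 2, and the liver-type Pygl was at 23.8 RPKM in pool 1 and 20.1 RPKM in pool 2. Ugp2, which makes the UDP-glucose that glycogen synthase uses, was at 38.8 RPKM in pool 1 and 39.2 RPKM in pool 2, and the branching enzyme Gbe1 was at 17.4 RPKM in pool 1 and 19.7 RPKM in pool 2. Gaa, the lysosomal glucosidase that degrades glycogen, was at 47.5 RPKM in pool 1 and 40.8 RPKM in pool 2.

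The shuttles that carry cytosolic NADH electrons into mitochondria were detected for 9 of 10 genes. Malate dehydrogenase was the most abundant of them, with the cytosolic Mdh1 at 259 RPKM in pool 1 and 258 RPKM in pool 2 and the mitochondrial Mdh2 at 210.4 RPKM in pool 1 and 208 RPKM in pool 2. The oxoglutarate carrier Slc25a11 was at 97.0 RPKM in pool 1 and 91.1 RPKM in pool 2. Of 7 gluconeogenesis genes, 2 were detected. These were the mitochondrial Pck2, at 31.3 RPKM in pool 1 and 29.3 RPKM in pool 2, and the widely expressed glucose phosphatase G6pc3, at 32.3 RPKM in pool 1 and 31.3 RPKM in pool 2. Of the other 5, 2 were listed at 0 in both pools.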
